A study of Mus musculus with 8 samples.

Results

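The TREM family, whose name stands for triggering receptors expressed on myeloid cells, and its adaptor DAP12 were followed in tumour neutrophils sorted by their surface level of ICAM1. The genes are Trem1, Trem2, Trem3, Treml1, Treml2, Treml4 and Tyrobp, which encodes DAP12. They were chosen by gene name, and 7 of the 54532 genes in the count table carried these names. ICAM1high and ICAM1low neutrophils came from mammary tumours of Balb/c mice, grown from 2208L cells placed in the mammary fat pad and taken at a diameter of 1 cm. Cells of both fractions had received no treatment per the labels, which give no age or sex, and ICAM1, also called CD54, is the adhesion molecule used for the sort. Each fraction gave 4 biological replicates, sequenced as mRNA libraries from 100 ng of total RNA, and the labels do not say whether each replicate was a separate mouse or a pool. Library names of a replicate share an identifier between the fractions, and whether these libraries came from the same tumours is not stated. The comparison of ICAM1high with ICAM1low asked how the fractions differ in a study of neutrophil adhesion and metastasis.

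TREM receptors are immunoglobulin-like proteins of the cell surface. Most have a very short cytoplasmic tail and cannot signal alone, so they pair inside the membrane with DAP12, which carries an activation motif that recruits the kinase Syk once its tyrosines are phosphorylated. TREM1 is best known on neutrophils and monocytes, where it amplifies inflammatory responses, whereas TREM2 is best known on macrophages, microglia and osteoclasts, where it binds lipids and apolipoproteins and sustains phagocytosis and lipid handling. In tumours, TREM2 is a common marker of tumour-associated macrophages.

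The coding sequences are shown for the stretch in which a receptor and DAP12 are known to meet. For each gene it is the most hydrophobic run of 19 residues beyond the first 30, found in the GENCODE M21 principal transcript on GRCm38 and printed 5′ to 3′ along the coding strand. Capitals mark the codon of a charged residue.
Trem1: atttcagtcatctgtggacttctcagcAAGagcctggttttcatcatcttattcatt
Trem2: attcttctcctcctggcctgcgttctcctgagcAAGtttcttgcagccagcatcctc
Trem3: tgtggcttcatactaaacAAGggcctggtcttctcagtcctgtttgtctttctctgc
Treml4: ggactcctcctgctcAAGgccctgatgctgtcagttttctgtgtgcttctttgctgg
Treml2: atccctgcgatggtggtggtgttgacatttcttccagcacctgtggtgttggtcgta
Treml1: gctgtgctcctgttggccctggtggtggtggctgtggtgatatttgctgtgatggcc
Tyrobp: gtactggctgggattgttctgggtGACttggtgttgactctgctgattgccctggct
Trem1, Trem2, Trem3 and Treml4 each had 1 lysine codon (AAG) in this stretch, and Tyrobp had 1 aspartate codon (GAC). A lysine and an aspartate of opposite charge are the known contact between these receptors and DAP12. Treml2 and Treml1 had no charged codon there. In Tyrobp, residues 92 to 106 held the activation motif (ITAM), with the codons of its tyrosines in capitals.
Tyrobp ITAM: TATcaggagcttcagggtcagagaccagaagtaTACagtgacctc
In Treml1, residues 289 to 294 matched the pattern of an inhibitory motif (ITIM), again with the tyrosine codon in capitals. The same short pattern also overlaps the first tyrosine of the Tyrobp ITAM, so it does not by itself set an inhibitory receptor apart.
Treml1 ITIM pattern: gtgacaTATgccacagtt

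The libraries held 10328575 to 22751975 counts. Of 14051 genes that passed the filter on low counts, 42.1% were called different between the fractions at an adjusted p under 0.05, 22.6% higher and 19.6% lower in ICAM1high (quasi-likelihood test of edgeR, Benjamini-Hochberg adjustment). Levels are given as CPM, counts scaled to a common library size of 1000000, after adjustment by TMM, which sets libraries against each other by the bulk of their genes, and fold changes are log2 of ICAM1high over ICAM1low. With unscaled library totals the median over all genes moved to a log2 fold change of 0.76, in place of 0.08, so values shifted upward by about 0.7, and calls of modest decreases were the most affected. The labelled cell type was checked against marker lists. All 12 neutrophil markers fell in ICAM1high (Mmp9 at -0.56, which turned to 0.12 with library totals alone and was not called without ICAM1high replicate 2 or 3), with a summed level of 7785 to 10551 CPM in ICAM1high and 35584 to 73191 CPM in ICAM1low, and their median change was -3.06 on the log2 scale. Of 12 macrophage markers 11 rose, with a summed level of 4676 to 7719 CPM in ICAM1high and 917 to 1385 CPM in ICAM1low and a median of 3.94. Hdc and Csf3r of the neutrophil list were at -2.09 and -1.47, and Adgre1 of the macrophage list was at 3.60. ICAM1high replicate 1 and ICAM1low replicate 4 stood apart from their groups for several of the genes below. They were picked by these values, so leaving them out narrows the spread of such genes by construction. Without both of them the log2 fold changes were -1.90 for Trem1, 4.21 for Trem2, -1.42 for Trem3, 5.28 for Treml1 and -1.3 for Treml2, all still called, and -0.003 for Treml4 (edgeR adjusted p = 0.991).

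All 7 genes passed the filter on low counts, which asked for about 0.548 CPM in 4 libraries, and 6 of them were above it in all 8 libraries. Treml1 passed only through its ICAM1high libraries, so its place among the calls follows in part from the filter. In ICAM1high, 2 of the 7 genes were called higher (Trem2 and Treml1), 4 lower (Trem1, Trem3, Treml2 and Tyrobp) and 1 did not pass (Treml4). The called share, 85.7%, stands beside the 42.1% of all tested genes. The CPM ranges of the fractions did not overlap for 5 of the 7 genes, beside 41.5% of all tested genes; Treml4 and Tyrobp overlapped. With library totals alone, 3 were higher (Treml4 joined) and 2 lower (Trem1 and Trem3). Bulk values do not separate fewer cells of a type from less RNA per cell.

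**Figure D1:**
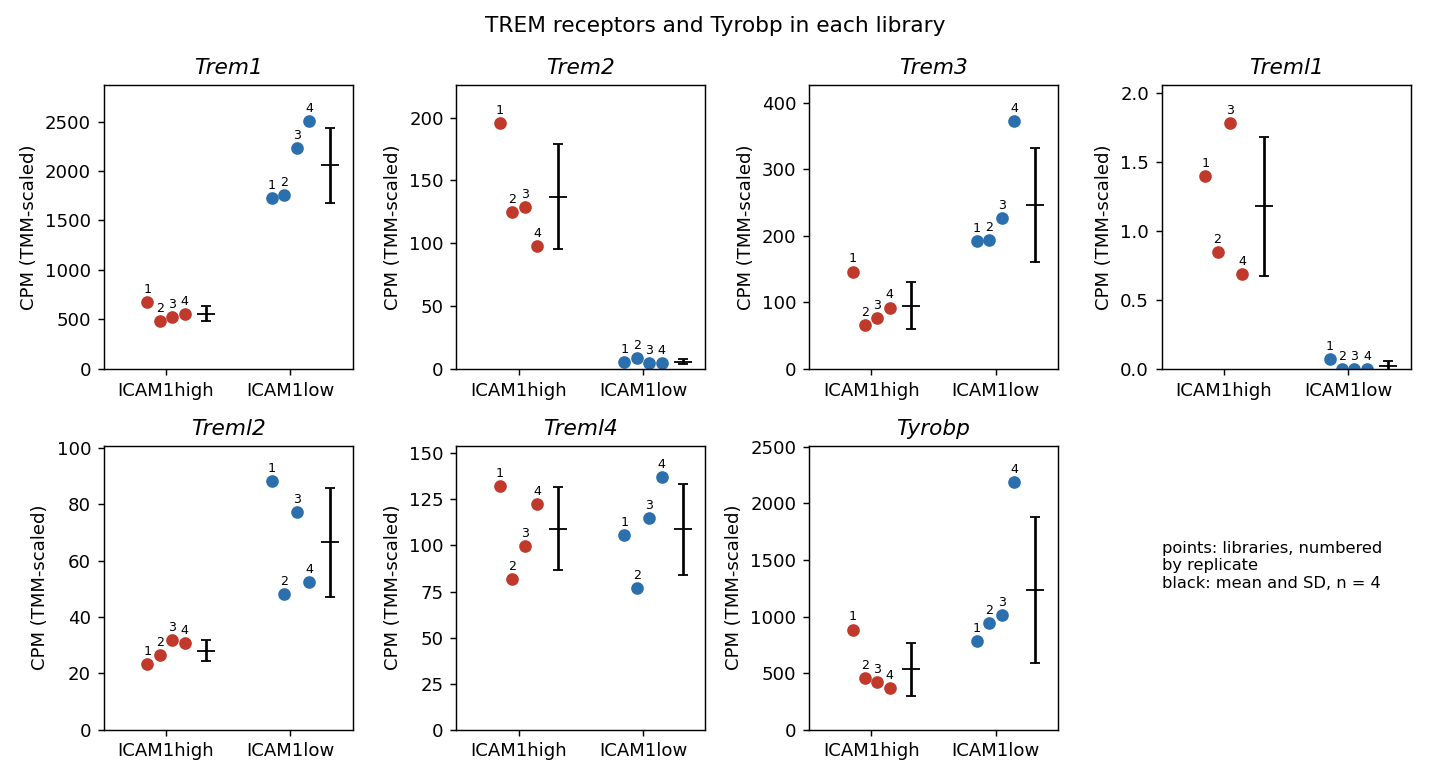
CPM of the 7 genes, 1 panel per gene on its own linear axis, ICAM1high left of ICAM1low; points are libraries numbered by replicate, and black marks are the mean and SD of 4 libraries. Trem2 was at 97.9 to 196 CPM in ICAM1high and 4.65 to 8.43 CPM in ICAM1low, while Trem1 was at 489 to 671 CPM in ICAM1high and 1727 to 2507 CPM in ICAM1low.

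Among the activating receptors, Trem1, the amplifier receptor of neutrophils, was the most abundant and fell in ICAM1high. Its gene (ENSMUSG00000042265) lies on mm10 chromosome 17 from 48232768 to 48246924. Trem1 measured 671, 489, 526 and 551 CPM in ICAM1high replicates 1 to 4, and 1727, 1761, 2237 and 2507 CPM in ICAM1low replicates 1 to 4. The lowest ICAM1low library was far above the highest ICAM1high library, and the replicate highest in each fraction was the one that stood apart. Means were 559 ± 79.1 CPM in ICAM1high and 2058 ± 379 CPM in ICAM1low (SD, n = 4), a log2 fold change of -1.88 (SE 0.18, edgeR adjusted p = 3.87e-05). It remained lower with library totals alone, at -1.19 (edgeR adjusted p = 8.06e-05). The summed neutrophil markers moved the same way in the same libraries, and their part in the difference was not tested.

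Trem3 lies next to Trem1 (ENSMUSG00000041754, chromosome 17, 48247777 to 48258841) and encodes a mouse receptor that also pairs with DAP12. It measured 147, 66.3, 76.3 and 92.4 CPM in ICAM1high replicates 1 to 4, and 193, 194, 227 and 373 CPM in ICAM1low replicates 1 to 4. The fractions did not overlap, and ICAM1high replicate 1 and ICAM1low replicate 4 were the highest of their groups, as for Trem1. The log2 fold change was -1.37 (SE 0.29, edgeR adjusted p = 0.00409). Replicates 1 and 2, whose library names carry neighbouring numbers, gave -0.86 when taken alone (edgeR adjusted p = 0.117), and replicates 3 and 4 gave -1.89 (edgeR adjusted p = 0.0169). The fall was smaller with library totals alone, at -0.68 (edgeR adjusted p = 0.0353).

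Trem2, the lipid receptor of macrophages, rose in ICAM1high and separated the fractions fully. The gene (ENSMUSG00000023992) spans 48346401 to 48354147 on chromosome 17. Trem2 measured 196, 125, 129 and 97.9 CPM in ICAM1high replicates 1 to 4, and 5.50, 8.43, 4.65 and 4.86 CPM in ICAM1low replicates 1 to 4. Raw counts were 4768, 2945, 2679 and 1285 in ICAM1high and 75, 138, 81 and 78 in ICAM1low, so the gene was detected in every library, far less in ICAM1low. Means were 137 ± 41.6 CPM in ICAM1high and 5.86 ± 1.75 CPM in ICAM1low (SD, n = 4), a 23.4-fold difference of means and a log2 fold change of 4.55 (SE 0.29, edgeR adjusted p = 3.74e-06). The macrophage marker list moved in the same direction, by a median of 3.94, and its part in the Trem2 difference was not tested. No alternative setting moved the Trem2 call, with log2 fold changes of 4.21 to 5.20, and replicates 1 and 2 alone and replicates 3 and 4 alone gave 4.52 and 4.53.

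Treml4 encodes a receptor of myeloid cells that pairs with DAP12 and has been tied to the uptake of dead cells and to nucleic acid sensing in mice. The gene (ENSMUSG00000051682) spans 48264295 to 48275360 on chromosome 17. It measured 132, 81.8, 99.9 and 123 CPM in ICAM1high replicates 1 to 4, and 106, 77.1, 115 and 137 CPM in ICAM1low replicates 1 to 4. The fractions overlapped almost wholly. The log2 fold change was 0.01 (95% interval -0.46 to 0.47, edgeR adjusted p = 0.987), an interval that leaves room for modest changes of either sign. With library totals alone it was 0.70 (edgeR adjusted p = 0.00732), so whether Treml4 differed depended on the scaling.

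The TREM-like receptors without a membrane lysine went opposite ways. Treml2 encodes TLT-2, a receptor of neutrophils, macrophages and B cells that does not use DAP12 (ENSMUSG00000071068, chromosome 17, 48299498 to 48312533). It measured 23.5, 26.4, 31.7 and 30.7 CPM in ICAM1high replicates 1 to 4, and 88.4, 48.1, 77.2 and 52.5 CPM in ICAM1low replicates 1 to 4. Every ICAM1high library was below every ICAM1low library. The log2 fold change was -1.25 (SE 0.22, edgeR adjusted p = 0.00134), and it no longer passed with library totals alone, at -0.56 (edgeR adjusted p = 0.0622).

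Treml1 encodes TLT-1, best known from the granules of platelets and megakaryocytes (ENSMUSG00000023993, chromosome 17, 48359916 to 48367176). It had 34, 20, 37 and 9 counts in ICAM1high replicates 1 to 4, against 1, 0, 0 and 0 counts in ICAM1low replicates 1 to 4. These are 0.685 to 1.78 CPM in ICAM1high, while counts of 0 in ICAM1low replicates 2, 3 and 4 allow up to 0.183, 0.172 and 0.187 CPM by the floor of 3 counts. The gene was thus detected in all ICAM1high libraries at a very low level. The summed counts, 100 in ICAM1high and 1 in ICAM1low, gave a CPM ratio of 77.7 with a 95% exact interval of 13.6 to 3098 that covers counting error only. The edgeR adjusted p was 0.000801, and the fitted log2 fold change of 5.70 depends on the prior count. A list of 8 platelet markers summed to 19.6 to 28.6 CPM in ICAM1high and 8.67 to 12.2 CPM in ICAM1low, without overlap and above the level of Treml1 itself in every library, and Gp1bb and Gp6 had 0 counts in ICAM1low. The part of platelets in the Treml1 value was not tested. Of the 3 platelet markers tested, Pf4, which macrophages can also express, rose by 3.43 on the log2 scale, Itga2b changed by -1.03 and Gp1ba did not pass at 0.79.

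Tyrobp, the shared adaptor, was lower in ICAM1high on average but varied widely within each fraction. It lies on chromosome 7 from 30413760 to 30417585 (ENSMUSG00000030579). Tyrobp measured 885, 453, 421 and 371 CPM in ICAM1high replicates 1 to 4, and 785, 942, 1018 and 2187 CPM in ICAM1low replicates 1 to 4. ICAM1high replicate 1 was above ICAM1low replicate 1, and ICAM1low replicate 4 was far above the other libraries of its fraction. Means were 533 ± 237 CPM in ICAM1high and 1233 ± 644 CPM in ICAM1low (SD, n = 4), with a log2 fold change of -1.21 (SE 0.37, 95% interval -2.03 to -0.39, edgeR adjusted p = 0.0228). Without ICAM1high replicate 1 and ICAM1low replicate 4 together the value was -1.17 (edgeR adjusted p = 0.00014). These libraries held the highest Tyrobp values of their fractions, so leaving them out narrows the spread by construction. The smaller p-value therefore does not make the call firmer. Without ICAM1low replicate 4 alone the log2 fold change was -0.78 (edgeR adjusted p = 0.0456). The call was lost without ICAM1high replicate 2, 3 or 4, with edgeR adjusted p-values of 0.0688, 0.0672 and 0.0647. It was also lost with library totals alone, at -0.51 (edgeR adjusted p = 0.190), and in replicates 1 and 2 alone, at -0.37 (edgeR adjusted p = 0.472), whereas replicates 3 and 4 alone gave -2.07 (edgeR adjusted p = 0.0255). With same-numbered libraries taken as pairs the call was lost as well, at -1.18 (edgeR adjusted p = 0.0796).

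The 6 listed TREM genes lie in a single cluster on chromosome 17, all on the plus strand, and the direction of change differed along it. From the Trem1 end, the listed receptors read lower, lower, not passed, lower, higher and higher in ICAM1high. Outside the listed names, 3 genes of the cluster carry TREM names among their RefSeq synonyms, and they were named after their values were seen. These are 9830107B12Rik (Trem5), at 2.74 ± 0.807 CPM in ICAM1high and 23.0 ± 2.82 CPM in ICAM1low (SD, n = 4), A530064D06Rik (Trem4, also pdctrem), at 17.1 ± 2.24 CPM in ICAM1high and 95.1 ± 16.5 CPM in ICAM1low, and B430306N03Rik (Treml6), at 55.9 ± 11.1 CPM in ICAM1high and 112 ± 21.6 CPM in ICAM1low. Their log2 fold changes were -3.08 (SE 0.25, edgeR adjusted p = 1.29e-05), -2.48 (SE 0.18, edgeR adjusted p = 6.56e-06) and -1.0 (SE 0.19, edgeR adjusted p = 0.00236). With library totals alone 9830107B12Rik and A530064D06Rik still passed, at -2.40 and -1.79, and B430306N03Rik did not, at -0.31 (edgeR adjusted p = 0.190). B430306N03Rik lies between Treml2 and Trem2, so the last gene that fell, ending at 48327024, and the first that rose, starting at 48346401, were neighbours with no other gene of the table between them. Past Treml1, the flanking Nfya, a subunit of a general transcription factor, did not pass at -0.21 (edgeR adjusted p = 0.298), nor did Oard1 at -0.64 (edgeR adjusted p = 0.0632).

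**Figure D2:**
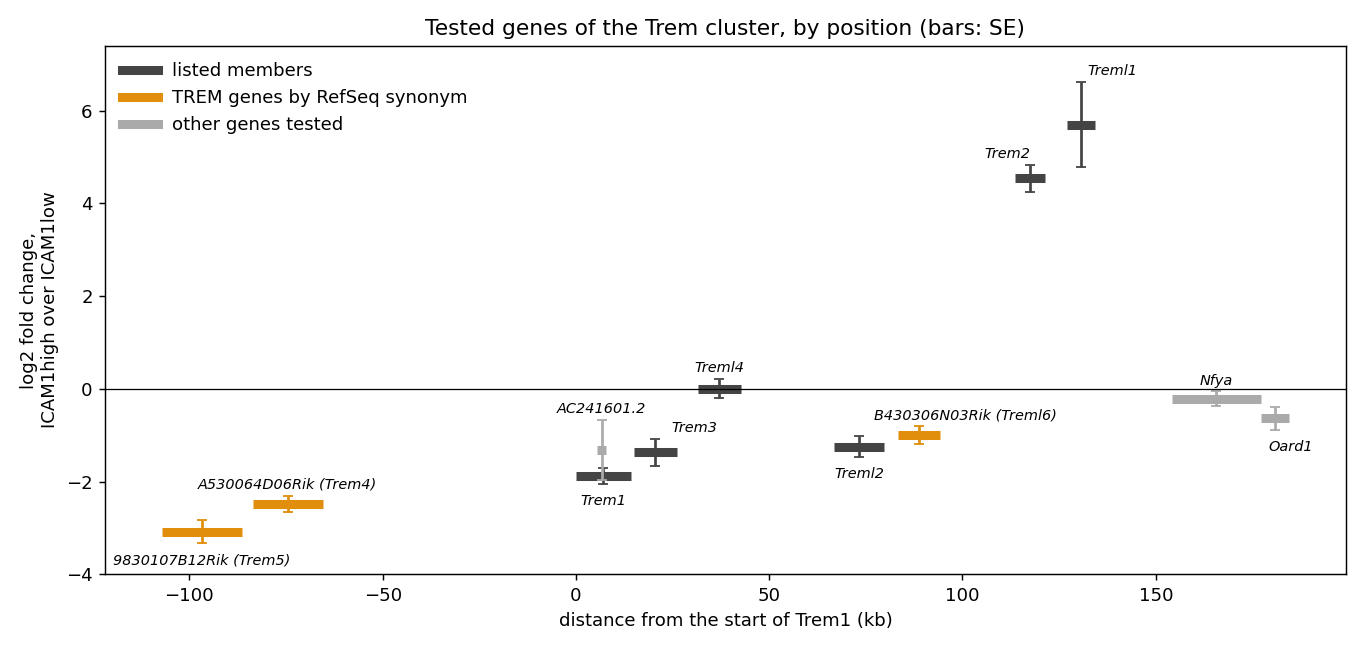
Log2 fold change (ICAM1high over ICAM1low, bars for the SE) of the tested genes of the chromosome 17 cluster, drawn as thick lines over the length of each gene, against distance in kb from the start of Trem1. Trem2 at 4.55 and Treml1 at 5.70 stand above 0 at the far end, and Trem1, Trem3 and Treml2 lie at -1.88, -1.37 and -1.25.

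The 7 genes do not share long sequence with others: of the 50-base stretches of their GENCODE transcripts, 0 were found in a transcript of another gene. On the opposite strand inside Trem1 lies AC241601.2, a pseudogene whose counts equal 2.66% of those of Trem1, and no source used here says whether strand was used in counting. Tyrobp ends 126 bases from Hcst, which lies on the other strand and encodes the related adaptor DAP10.

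The start sites of Trem1 and Trem2 are shown because the genes share a cluster and a strand but moved in opposite directions. The RefSeq promoter table (GRCm38.p6) held 4 of the 7 genes (Trem1, Trem2, Treml1 and Treml4), with 250 bases before and 50 after each start. Capitals mark matches on either strand to the PU.1 type of ETS site, written GAGGAA, to the AP-1 site, written TGANTCA, to the C/EBP site, written TTGCNNAA, to the site of GATA factors, written AGATAA, or to the E-box, written CACGTG. No matches of different motifs overlap in the sequences printed.
Trem1, chr17:48232489-48232788, plus strand: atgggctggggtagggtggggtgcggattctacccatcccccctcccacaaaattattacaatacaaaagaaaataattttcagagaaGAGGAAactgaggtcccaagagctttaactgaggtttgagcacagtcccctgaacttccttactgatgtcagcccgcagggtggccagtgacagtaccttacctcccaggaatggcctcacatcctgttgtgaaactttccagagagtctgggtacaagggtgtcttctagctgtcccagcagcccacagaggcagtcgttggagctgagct
Trem2, chr17:48346151-48346450, plus strand: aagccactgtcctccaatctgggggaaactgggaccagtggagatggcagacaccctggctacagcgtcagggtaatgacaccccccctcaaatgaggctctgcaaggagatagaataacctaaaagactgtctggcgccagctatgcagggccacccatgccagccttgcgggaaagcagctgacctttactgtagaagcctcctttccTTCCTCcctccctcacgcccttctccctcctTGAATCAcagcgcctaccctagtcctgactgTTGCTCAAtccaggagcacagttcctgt
Trem1 held 1 match to GAGGAA, a motif found in 28.3% of the 32851 promoters of the table. Trem2 held 1 match to GAGGAA on the reverse strand, 1 to TGANTCA, found in 7.81% of promoters, and 1 to TTGCNNAA, found in 10.8%. Treml4 held 2 reverse matches to GAGGAA, and Treml1 held 1 to CACGTG, found in 7.15%. None of the 4 held AGATAA, found in 11.2%. These matches describe letters in a window and say nothing of binding in these cells.

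Levels of different genes were compared per length, as counts per 1000 bases of deposited gene length, scaled to a sum of 1000000 over all genes. On this per-length scale Tyrobp led in both fractions, at 2824 ± 754 in ICAM1high and 3485 ± 937 in ICAM1low (SD, n = 4). In ICAM1high the order of levels continued with Trem1 at 681 ± 29.5, Trem3 at 342 ± 72.2, Treml4 at 199 ± 30.6, Trem2 at 99.6 ± 16.4, Treml2 at 21.4 ± 5.15 and Treml1 at 3.08 ± 1.37. In ICAM1low it continued with Trem1 at 1362 ± 116, Trem3 at 480 ± 52.9, Treml4 at 108 ± 17.4, Treml2 at 28.1 ± 11.8, Trem2 at 2.46 ± 1.03 and Treml1 at 0.0311 ± 0.0623. Neighbours in either order did not overlap between libraries, and Trem2 and Treml2 changed places. The deposited length of Trem2, 4946 bases, is long beside the 1088 bases of its principal transcript. With principal transcript lengths Trem2 reached 453 ± 74.7 in ICAM1high, above Trem3 at 342 ± 72.2 with overlapping libraries, and 11.2 ± 4.68 in ICAM1low.

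The make-up of the receptor pool differed between the fractions, and these shares do not depend on how libraries are scaled. Of the summed per-length levels of the 6 receptors, Trem1 made up 50.8 ± 3.25% in ICAM1high and 68.7 ± 2.90% in ICAM1low, Treml4 14.7 ± 1.51% in ICAM1high and 5.43 ± 0.677% in ICAM1low, and Trem2 7.44 ± 1.37% in ICAM1high and 0.126 ± 0.0578% in ICAM1low (SD, n = 4). Trem3 held a like share in each, 25.2 ± 3.81% in ICAM1high and 24.3 ± 3.22% in ICAM1low. The shares of Trem1, Trem2 and Treml4 did not overlap between fractions, while those of Trem3 and Treml2 did. Treml1, with 1 count in ICAM1low, did not overlap either, at 0.134 to 0.379% in ICAM1high and 0 to 0.0062% in ICAM1low. With principal transcript lengths Trem2 made up 25.8 ± 4.00% in ICAM1high and 0.553% in ICAM1low, so its share depends strongly on the length assumed, though the direction did not.

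**Figure D3:**
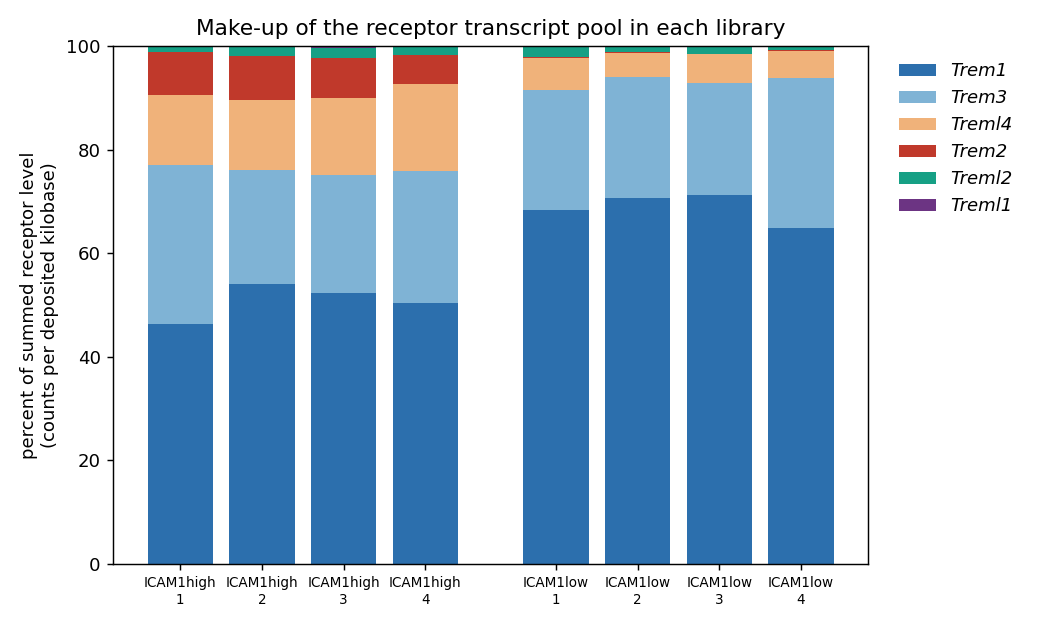
Share of each receptor in the summed per-length level of the 6 receptors, in percent, for each library, ICAM1high left of ICAM1low. Trem2 is visible in all ICAM1high libraries, at 5.43 to 8.38%, and stays at or under 0.205% in ICAM1low.

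Ratios between genes within a library are free of the scaling too. Trem1 over Trem2, per length, was 5.66, 6.44, 6.72 and 9.29 in ICAM1high replicates 1 to 4, and 519, 345, 794 and 852 in ICAM1low replicates 1 to 4. With principal transcript lengths the ratio was 1.55 ± 0.347 in ICAM1high and 138 ± 52.3 in ICAM1low (SD, n = 4). Trem1 therefore exceeded Trem2 in every library, by a margin that was far narrower in ICAM1high. Trem1 over Trem3 overlapped between fractions, at 1.52 to 2.44 in ICAM1high and 2.23 to 3.27 in ICAM1low. Tyrobp over the summed receptors was 2.10 ± 0.523 in ICAM1high and 1.77 ± 0.527 in ICAM1low, with overlap, and was highest in ICAM1high replicate 1, at 2.75, and ICAM1low replicate 4, at 2.54. Tyrobp transcript per summed transcript of the listed TREM receptors was thus not separated by fraction. That sum includes Treml1 and Treml2, which have no membrane lysine, and leaves out the other receptors that pair with DAP12. Against other adaptors, Tyrobp over Fcer1g was 2.22 ± 0.176 in ICAM1high and 2.70 ± 0.265 in ICAM1low with no overlap, and Tyrobp over Hcst was 45.3 ± 11.1 in ICAM1high and 32.7 ± 6.27 in ICAM1low with overlap.

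Of the 3 other adaptor chains 2 were tested, Fcer1g and Hcst, of which 0 rose (0%) and 2 fell (100%). These shares of only 2 genes stand beside 22.6% higher and 19.6% lower among all tested genes. Fcer1g, the Fc receptor gamma chain that also carries an ITAM, averaged 310 ± 120 CPM in ICAM1high and 585 ± 243 CPM in ICAM1low, and Hcst, DAP10, which signals through PI3-kinase, averaged 13.5 ± 7.39 CPM in ICAM1high and 44.1 ± 30.8 CPM in ICAM1low (SD, n = 4). Their log2 fold changes were -0.92 (edgeR adjusted p = 0.0376) and -1.71 (edgeR adjusted p = 0.0149), and neither passed with library totals alone. The Fcer1g call was lost without ICAM1high replicate 2, 3 or 4 or ICAM1low replicate 3 or 4 (-0.85, -0.85, -0.84, -0.95 and -0.60), and Hcst was at -1.595 without ICAM1high replicate 2 (edgeR adjusted p = 0.0501) and -1.10 without ICAM1low replicate 4. Cd247, the T cell receptor zeta chain, did not pass the filter on low counts, and was at 0.707 ± 0.403 CPM in ICAM1high and 0.0846 ± 0.0944 CPM in ICAM1low (SD, n = 4), higher in ICAM1high without overlap; DESeq2, and edgeR with no filter, called it higher.

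Of 14 other receptors that pair with DAP12, 9 were tested, of which 1 rose (11.1%), 5 fell (55.6%) and 3 did not pass. These shares stand beside 22.6% higher and 19.6% lower among all tested genes. The median log2 fold change of these receptors was -1.06 beside 0.08 for all genes. Cd300lb, an activating receptor of the CD300 family, was at 51.1 ± 3.45 CPM in ICAM1high and 113 ± 6.66 CPM in ICAM1low, and changed by -1.14 (edgeR adjusted p = 0.000112). The SIRP-beta receptors Sirpb1a, Sirpb1b and Sirpb1c, close paralogs whose reads may be hard to assign, changed by -1.24, -1.09 and -1.47, and Pilrb2, an activating paired receptor, by -1.06. Klrk1, which encodes NKG2D of NK and T cells, was the only one called higher. It was at 3.15 ± 0.954 CPM in ICAM1high and 0.183 ± 0.366 CPM in ICAM1low (SD, n = 4), where replicate 1 alone held counts. Klrk1 could pass the filter on low counts through its ICAM1high libraries alone, so its call follows in part from the filter. With the filter of 50 counts in 4 libraries, 0 of these receptors were called higher. T and NK cell markers summed to 23.1 to 31.5 CPM in ICAM1high and 13.7 to 20.9 CPM in ICAM1low. Of these 8 markers 2 were tested, of which Cd4 rose and Cd3d fell. The part of such cells in the Klrk1 value was not tested. Klra4 and Klra8, activating Ly49 receptors of NK cells, had 0 counts in all libraries. With library totals alone 2 of the 9 rose and 3 fell, and Clec5a, a myeloid lectin at 0.48 that did not pass here, was the added one that rose.

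Downstream of DAP12, 29 signalling genes were tested: 6 rose (20.7%), 10 fell (34.5%) and 13 did not pass. All tested genes had 22.6% higher and 19.6% lower. The median change of the 29 genes was -0.11 on the log2 scale. The 6 that rose were Blnk, a B cell and macrophage linker, at 34.6 ± 6.49 CPM in ICAM1high and 3.21 ± 0.856 CPM in ICAM1low, the kinase Fyn, the linker Lat2 (NTAL), the exchange factor Vav2, the PI3-kinase subunit Pik3cb and the phospholipase Plcg2. Their log2 fold changes were 3.43, 3.31, 2.59, 2.49, 0.83 and 0.50. Plcg2 no longer passed without ICAM1high replicate 2, 3 or 4 or ICAM1low replicate 3 or 4, at 0.43 to 0.46. Among those that fell, named after their values were seen, were Syk, the kinase that binds the ITAM, at 613 ± 76.5 CPM in ICAM1high and 1304 ± 221 CPM in ICAM1low with a log2 fold change of -1.09 (SE 0.17, edgeR adjusted p = 0.000677), the Src-family kinases Fgr and Lyn at -0.94 and -0.81, and Card9 and Bcl10, which link Syk to NF-kB, at -1.03 and -1.46. The direction of the list turned on scaling: with library totals alone 12 rose and 1 (Bcl10) fell, and Syk was at -0.40 (edgeR adjusted p = 0.0796).

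Brakes on this pathway were mixed. Of 11 genes, 10 were tested, of which 2 rose (20%), 3 fell (30%) and 5 did not pass, with a median of 0.14. Over all tested genes these shares were 22.6% and 19.6%. The phosphatases Ptpn6 (SHP-1) and Inpp5d (SHIP1) and the adaptor Dok3 changed by -0.78, -0.76 and -0.77, whereas the adaptor Dok1 and the ubiquitin ligase Cblb rose by 1.08 and 1.06; Inpp5d was named after its value was seen. With library totals alone 6 rose and 0 fell.

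Among 7 reported ligands of TREM receptors 2 rose (28.6%), 3 fell (42.9%) and 2 did not pass, with a median of -0.37. Over all tested genes 22.6% were higher and 19.6% lower. Apoe, an apolipoprotein bound by TREM2, averaged 7545 ± 1670 CPM in ICAM1high and 408 ± 86.6 CPM in ICAM1low (SD, n = 4), a log2 fold change of 4.21 (SE 0.24, edgeR adjusted p = 1.58e-06). Cd276 (B7-H3), reported as a ligand of TLT-2, rose by 1.47. Pglyrp1, a neutrophil granule protein that activates TREM1, averaged 58.8 ± 31.3 CPM in ICAM1high and 236 ± 177 CPM in ICAM1low, at -2.0 (SE 0.50, edgeR adjusted p = 0.00879), and at -1.33 without ICAM1low replicate 4 (edgeR adjusted p = 0.0109). Clu, another apolipoprotein bound by TREM2, was at -1.19, and Cirbp, reported to bind TREM1, at -0.71, a call lost without ICAM1high replicate 2 or 3 or ICAM1low replicate 2. Scaled by library totals alone, 3 rose and 1, Pglyrp1, fell.

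Of 10 genes for the shedding and clearance of TREM2, 3 rose (30%), 1 fell (10%) and 6 did not pass, with a median of 0.04. Among all tested genes the shares were 22.6% higher and 19.6% lower. Ms4a4a and Ms4a6d, tetraspan proteins of macrophages tied to soluble TREM2, rose by 4.42 and 3.15, with Ms4a4a at 36.5 ± 12.2 CPM in ICAM1high and 1.67 ± 1.18 CPM in ICAM1low (SD, n = 4), and the sheddase Adam10 rose by 0.78. Under library totals 6 rose and 0 fell.

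A list was made of 17 genes of a lipid and phagocyte programme tied to TREM2 in microglia and macrophages. Not all of them are known to depend on TREM2, and such dependence was not tested here. It includes Trem2 and Tyrobp themselves. The list held 8 that rose (47.1%) and 3 that fell (17.6%), beside 22.6% and 19.6% of all tested genes. The other 6 did not pass, and the median of the list was 0.50. Beside Trem2 and Apoe, the rises included Axl, a receptor for dying cells, at 4.90, and Lpl, lipoprotein lipase, at 4.28. The genes that fell were Cd9, a tetraspanin, at -1.6, Clec7a, the beta-glucan receptor Dectin-1 that neutrophils also use, at -1.38, and Tyrobp. Spp1, osteopontin, did not pass at 409.7 ± 93.7 CPM in ICAM1high and 440.1 ± 109 CPM in ICAM1low, nor did Lgals3, Fabp5 and Ctsd, at -0.37, -0.45 and -0.46, all 4 named after their values were seen. Under library totals 10 rose and 2 fell. The macrophage markers given above rose in the same libraries, and their part in this list was not tested.

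Of 12 inflammatory genes tied to TREM1 signalling 1 rose (8.33%), 5 fell (41.7%) and 6 did not pass, with a median of -0.25. The shares over all tested genes were 22.6% higher and 19.6% lower. The neutrophil chemokine Cxcl3 averaged 92.1 ± 21.8 CPM in ICAM1high and 730 ± 167 CPM in ICAM1low, a log2 fold change of -2.99 (SE 0.23, edgeR adjusted p = 9.28e-06). Il1b, Cxcl2 and Nlrp3, an inflammasome sensor, changed by -1.56, -1.53 and -1.06. Ccl2, a monocyte chemokine, rose by 1.71 (SE 0.56, edgeR adjusted p = 0.0304), at 24.3 ± 12.5 CPM in ICAM1high and 7.43 ± 6.77 CPM in ICAM1low, but did not pass without ICAM1high replicate 1 or 2 or ICAM1low replicate 1, 2 or 3, at 1.25 to 1.73. Tnf did not pass at 0.76 (edgeR adjusted p = 0.0811) and passed without ICAM1low replicate 4, at 1.01, the prostaglandin enzyme Ptgs2 fell at -1.06, and both were named after their values were seen. Under library totals 5 rose and 3 fell.

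**Figure D4:**
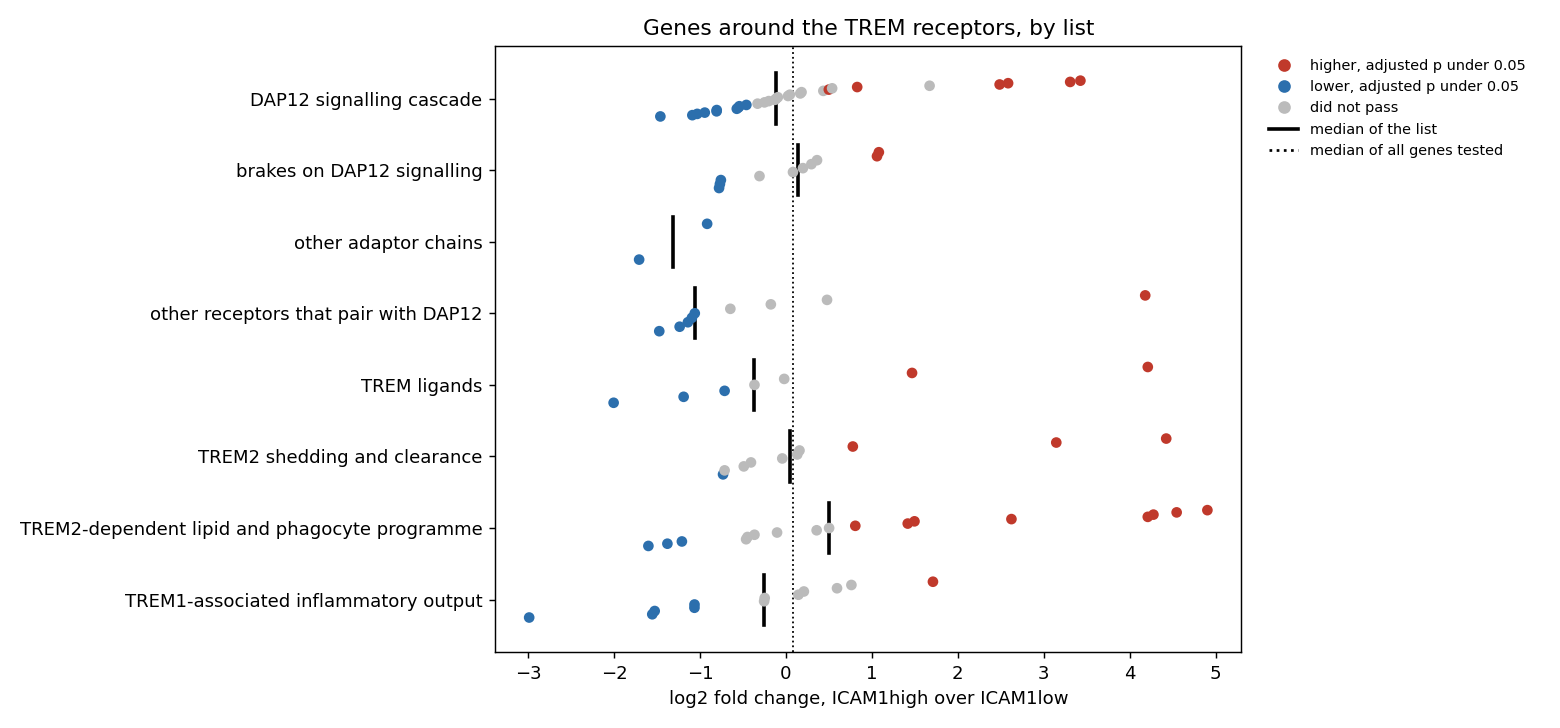
Log2 fold changes (ICAM1high over ICAM1low) of the genes of each pathway list, 1 point per gene, red for higher, blue for lower and grey for not passed, with the list's median as a black line and the median of all genes dotted. The other DAP12 receptors have a median of -1.06 and the lipid and phagocyte programme tied to TREM2 a median of 0.50. Every list holds tested genes on either side of 0 except the adaptor chains, of which 2 were tested.

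The genes whose log2 CPM followed those of the receptors most closely over the 8 libraries were sought among 7988 genes, as a description, since the difference between fractions sets most of such a likeness. Among the genes most like Trem1 were Tpd52, Actg1, Tnfrsf1a and Il15, with Pearson r of 0.996 to 0.998. Trem2 was most like Syngr1, Ckb, Scpep1, Lpxn and Evl, with r of 0.997 to 0.998. Tyrobp was most like Myl6, the predicted gene Gm14039, Atp6v1d, Atp6v0e and Gabarap, with r of 0.994 to 0.997.

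**Figure D5:**
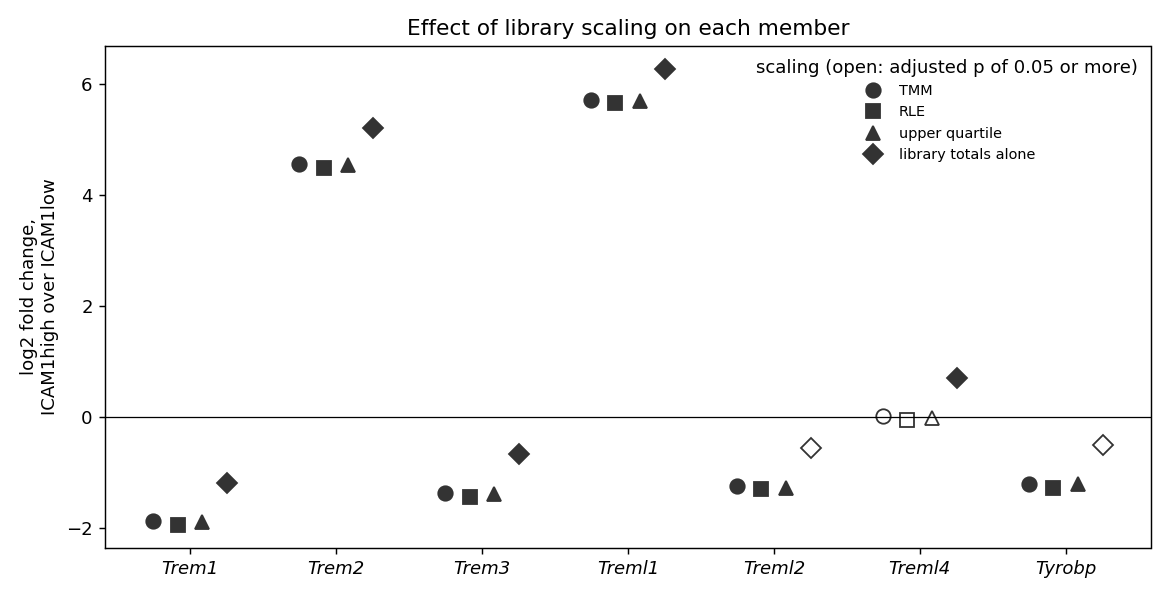
Log2 fold change of each of the 7 genes (ICAM1high over ICAM1low) with 4 ways of scaling the libraries; open symbols did not pass. Library totals alone lie above the other scalings for every gene, at 5.20 for Trem2, -1.19 for Trem1, -0.51 for Tyrobp and 0.70 for Treml4.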

How the data were processed

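The authors deposited a table of read counts per gene with no normalization; the reads were aligned to mm10 with HISAT2, per the submitters' processing notes, and its version, the counting tool and the use of strand are not given in these sources. Gene length, another quantity the authors deposited, served for per-length levels. With R 4.3.3, edgeR 4.0.16 filtered genes by group (filterByExpr), applied TMM scaling and ran its quasi-likelihood F test over all genes, unpaired, with Benjamini-Hochberg adjustment and a threshold of 0.05. The SE was obtained from F and the fold change. Scripts were tested on simulated data. Totals of 10328575 to 22751975 counts limit low genes such as Treml1. The members and lists were chosen with earlier results of these data known. Named were all members, up to 4 genes of each list with the smallest p (average log2 CPM of at least 1) and those called against the list's majority, and 2 per marker list; exceptions are stated. Nothing says that replicates came from separate mice, so p-values measure the spread between these samples. Alternatives were DESeq2 1.42.0, limma-voom (limma 3.58.1), other scalings and filters, a replicate block, robust dispersion, a term for the library-number run, runs alone and left-out libraries. Principal transcript lengths were added after the data were seen.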

Additional observations from a re-analysis of the deposited data

Results flagged for a closer look

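In groups of 4 libraries, the gap of the highest or lowest library to the nearest other was divided by the range of the group. The library was flagged when this ratio was above Dixon's 95% critical value. Chance flags about 1 in 20 groups, and 14 groups were tested. Tyrobp was flagged in ICAM1high replicate 1, at 885 CPM beside 371 to 453 CPM in the other ICAM1high libraries, and in ICAM1low replicate 4, at 2187 CPM beside 785 to 1018 CPM in the other ICAM1low libraries. Treml1 was flagged in ICAM1low replicate 1, at 0.0733 CPM, which is 1 count beside 0 counts in the other ICAM1low libraries. With 0 counts in all the others the ratio is 1 whatever the value, so this flag was fixed in advance.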

How the results depend on the processing

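Trem1 and Trem2 kept their call in all 21 alternatives, with log2 fold changes of -2.19 to -1.19 and 4.21 to 5.20, and Treml1 in 20, at 4.81 to 7.49; the filter of 50 counts in 4 libraries dropped Treml1, which left 1 receptor higher. Trem3 and Treml2 kept theirs in 20 of 21 alternatives each, Treml4 stayed uncalled in 20 of 21, and Tyrobp kept its call in 15 of 21. Leaving out 1 library gave 2344 to 3403 higher and 2157 to 2927 lower genes of all tested, and 2 higher and 3 to 4 lower among the 7 genes. For the lists it gave 0 to 2 higher in TREM1 output, 0 to 1 higher and 0 to 2 lower among adaptor chains, 1 to 2 higher among other DAP12 receptors and 1 to 2 lower in TREM2 shedding.

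Library totals alone gave 6810 higher and 842 lower genes, so 89% of calls were higher beside 53.6% with TMM. The 7 genes then had 2 lower, the cascade 12 higher and 1 lower, brakes 6 and 0, adaptor chains 0 lower, other DAP12 receptors 2 and 3, ligands 1 lower, shedding 6 and 0, and TREM1 output 5 and 3; this setting shifts every gene upward by construction. Signs turned for Lcp2 (0.13), Btk (0.13), Tec (0.58), Grb2 (0.22), Prkcd (0.11), Hmgb1 (0.67), Psen2 (0.64) and Mmp9 (0.12). These were listed genes called with TMM or with library totals. Signs also turned for genes called with neither, among them Vav1 (-0.33 to 0.35) and Lgals3 (-0.37 to 0.34). Replicates 1 and 2 alone gave 1708 higher and 1416 lower genes, 2 lower among the 7 genes, 3 lower in the cascade, 1 in brakes, 0 in adaptor chains, 0 higher and 3 lower among other DAP12 receptors, 0 lower in ligands and shedding, and 1 lower in the TREM2 programme. Replicates 3 and 4 alone gave 1658 higher and 1604 lower genes, 5 lower in the cascade, 1 higher in brakes, and 0 higher and 3 lower in TREM1 output. Without both ICAM1high replicate 1 and ICAM1low replicate 4, TREM1 output had 2 higher and shedding 2 lower. DESeq2 and no filter each gave 1 higher adaptor chain, limma-voom 2 higher other DAP12 receptors, and the filter of 50 counts 0. The library-number run as a covariate gave 0 higher in TREM1 output and 1 lower adaptor chain. The cause of these changes was not tested, apart from fewer libraries or genes where some were left out.

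Library names of a replicate share an identifier between the fractions, but the labels do not say that these libraries share a tumour. Their deviations from group means correlated at -0.57, 0.21, 0.18 and -0.30, which does not settle whether they are pairs. With the replicate block, 2263 genes were higher and 1975 lower, 3 of the 7 genes were lower as Tyrobp stood at -1.18 (edgeR adjusted p = 0.0796), TREM1 output had 0 higher and adaptor chains 1 lower. With the block Plcg2, Fcer1g, Pilrb2, Cirbp, Adam10, Ccl2 and Ptgs2 were not called either, at edgeR adjusted p-values of 0.0924, 0.103, 0.0509, 0.0714, 0.0512, 0.0620 and 0.0531.

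Depth limits Treml1, whose ICAM1low level rests on 1 count, and per-length levels of Trem2 depend on the gene length assumed: its share of the receptor sum in ICAM1high was 7.44% with the deposited length and 25.8% with the principal transcript.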

Other observations

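Markers of other cell types that tumour tissue can hold were measured as well. T and NK cell markers held Cd4, which rose by 3.84 on the log2 scale at 16.9 ± 3.07 CPM in ICAM1high and 1.17 ± 0.635 CPM in ICAM1low (SD, n = 4), and Cd3d, which fell by 1.27 at 5.92 ± 1.68 CPM in ICAM1high and 14.3 ± 4.25 CPM in ICAM1low. B cell markers summed to 4.29 to 26.95 CPM in ICAM1high and 0.977 to 8.21 CPM in ICAM1low, and Cd79b was the 1 that rose, by 4.12. Of 6 dendritic cell markers 4 were tested by edgeR, and the closest to a call was Cd209a, at 2.01 (edgeR adjusted p = 0.0734), with summed levels of 7.37 to 14.7 CPM in ICAM1high and 3.85 to 9.89 CPM in ICAM1low. Tumour epithelial markers summed to 110 to 163 CPM in ICAM1high and 257 to 458 CPM in ICAM1low, with Krt8 and Krt18 lower by log2 fold changes of -1.47 and -1.41. Of 4 monocyte markers Cx3cr1 and Ccr2 rose by 4.70 and 3.41, and Nr4a1, named after its value was seen, fell by 0.80. Ly6c2, also named after its value was seen, did not pass at -1.11. It was called lower without ICAM1high replicate 1 or ICAM1low replicate 1, at -1.44 and -1.38. The 4 monocyte markers summed to 1869 to 2358 CPM in ICAM1high and 2495 to 3827 CPM in ICAM1low, lower in ICAM1high without overlap. The part of such cells in the values of the TREM receptors was not tested.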
